A study of Mus musculus with 4 samples.

Results

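The serpins are a family of protease inhibitors, and all mouse genes whose symbol starts with Serpin were followed here in megakaryocytes, the large marrow cells from which platelets come. Of 41214 Ensembl genes counted in each library, 63 carried such a symbol, after 5 pseudogenes with names ending in -ps were left out; those 5 had 0 counts in total. A gene was taken as measured with at least 20 counts summed over the 4 libraries, which 19 of the 63 reached. Of the other 44, 31 had 0 counts in every library and 13 had 1 to 19 counts. Among those not measured were Serpina1a to Serpina1f, Serpina3a, Serpina3c, Serpina3j, Serpina3k, Serpina3m, Serpina3n, Serpina5, Serpina6, Serpina7, Serpina9, Serpina10, Serpina11, Serpina16, Serpinb1b, Serpinb1c, Serpinb3a to Serpinb3d, Serpinb5, Serpinb6c, Serpinb6d, Serpinb6e, Serpinb7, Serpinb9b to Serpinb9g, Serpinb11, Serpinb12, Serpinb13, Serpind1, Serpine3, Serpinf2 and Serpini2. Serping1 with 21 counts and Serpinc1 with 22 were just inside that limit, and Serpinb12 with 12 and Serpina11 with 10 were just outside it.

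RNA was sequenced from cells sorted as lineage-negative and positive for cKit, CD41 and CD61 from the bones of C57Bl/6 mice aged 8 weeks. The 4 groups held 1 library each, Gfi1b knockout with PF4-Cre, Gfi1b wild-type with PF4-Cre, Gfi1b knockout with ROSA-Cre and Gfi1b wild-type with ROSA-Cre. Gfi1b encodes a zinc finger repressor of blood cell development. PF4-Cre places the recombinase under the platelet factor 4 promoter of megakaryocytes; neither the ROSA-Cre nor the Gfi1b allele is described further, and the number of mice behind a library is not stated.

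A serpin offers its target protease a flexible reactive centre loop as bait. Once the loop is cut, the serpin snaps into a more stable fold and holds the protease in a covalent complex, so each molecule works only once. Clade A, C, E, F, G and I serpins are mostly secreted and restrain proteases of clotting, fibrinolysis, complement and inflammation, while clade B serpins mostly stay inside the cell, where they guard it against its own granule and lysosomal proteases. A few members inhibit nothing, among them Serpinh1 (HSP47), a collagen chaperone of the endoplasmic reticulum. Platelets carry serpins in their alpha granules, including the thrombin inhibitor protease nexin-1 (Serpine2).

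Gene counts per library ran from 21835165 to 61652843, with the PF4-Cre pair the deeper one, and a count of 0 allowed a level of up to 0.0487 to 0.137 CPM (counts scaled to the library's gene counts, here for a floor of 3 counts). Gfi1b itself had 1401 CPM in the PF4-Cre knockout against 169.6 in its wild-type, and 2462 CPM in the ROSA-Cre knockout against 238 in its wild-type. The gene count was thus higher in the libraries labelled knockout, opposite to what a loss of the whole transcript would give; the deleted part of the gene is not named in the labels. Knockout below means labelled knockout, and every direction rests on those labels. All 12 megakaryocyte markers were tested, with a summed level of 7616 and 6620 CPM in the knockouts and 7122 and 9925 CPM in the wild-types in the order PF4-Cre, ROSA-Cre. In bulk RNA, fewer cells of a type and less RNA per cell cannot be told apart.

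Serpin transcripts made up 1512 CPM in the PF4-Cre knockout and 1125 CPM in its wild-type, and 851 CPM in the ROSA-Cre knockout and 960 CPM in its wild-type (TMM-normalised CPM, the scale of all CPM values below). Few genes supplied them. Serpina3g, an intracellular inhibitor of cysteine cathepsins in mouse blood cells, gave 48.0% of serpin counts in the PF4-Cre knockout, 49.9% in its wild-type, 19.01% in the ROSA-Cre knockout and 36.4% in its wild-type. Serpine2 gave 21.6% and 18.3% in the PF4-Cre knockout and wild-type, and 40.5% and 36.1% in the ROSA-Cre knockout and wild-type. Per kilobase of exon, a scale on which genes can be set side by side, the mean level over the 4 libraries was 214 CPM per kb for Serpina3g, 61.4 for Serpinb1a and 37.0 for Serpine2. Serpinb10 followed with 14.4 CPM per kb, Serpinb6b with 13.2, Serpina3b with 11.2, Serpina3f with 8.43, Serpinb9 with 8.27, Serpinh1 with 6.51 and Serpinb6a with 5.16. The next 4 genes, Serpinf1, Serpini1, Serpinb8 and Serpinb2, lay between 0.57 and 2.74 CPM per kb, and the last 5 at 0.155 CPM per kb or less. The order changed between libraries. Serpinb10 had 13.8 and 0.384 CPM per kb in the PF4-Cre and ROSA-Cre knockouts and 29.5 and 13.8 in the wild-types, and Serpina3b 24.997 and 7.12 in the knockouts and 8.54 and 4.299 in the wild-types. In the ROSA-Cre knockout Serpinb1a stood at 77.5 and Serpina3g at 76.9 CPM per kb.

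**Figure D1:**
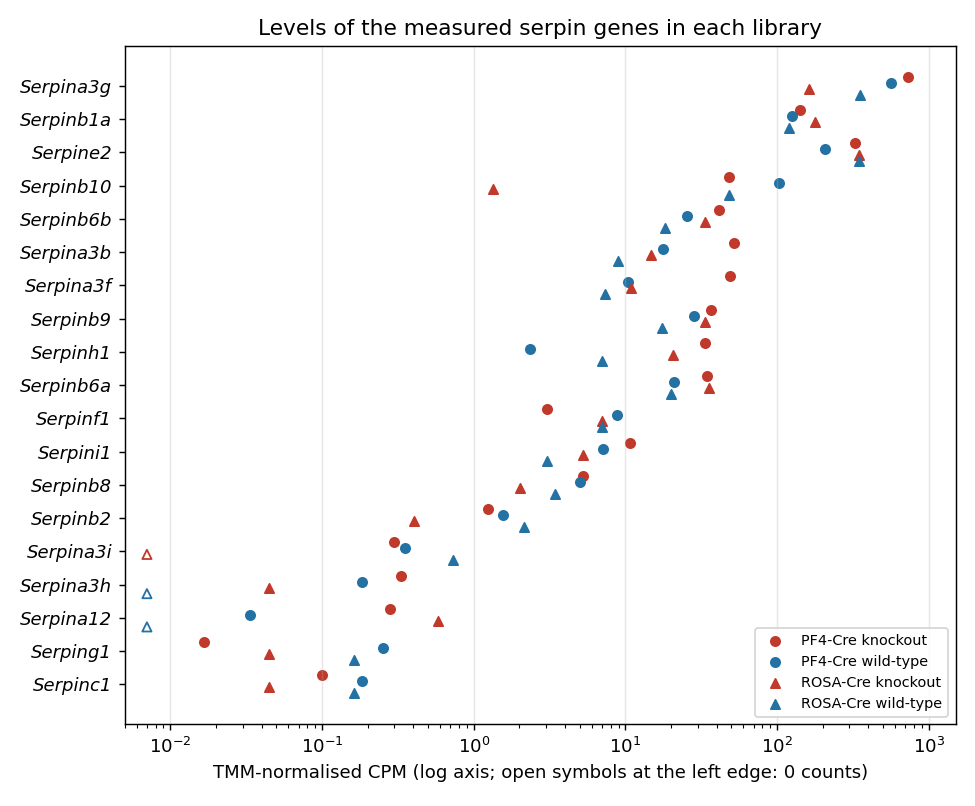
TMM-normalised CPM (log axis) of the 19 measured serpin genes in each library, knockouts in red and wild-types in blue, PF4-Cre as circles and ROSA-Cre as triangles, ordered by mean level per kilobase; open symbols at the left edge stand for 0 counts. Serpina3g reached 726 CPM in the PF4-Cre knockout, and Serpinb10 stood at 1.34 CPM in the ROSA-Cre knockout, far from its other 3 values.

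Members of the 3 large serpin clusters were unevenly used. On chromosome 12 lie 24 members of clade A, of which 6 were measured, and on chromosome 13 15 of clade B, of which 4 were measured. Chromosome 1 holds 14 members, of which 5 were measured. Serpina3b, Serpina3f and Serpina3g, with totals of 4735, 3987 and 89712 counts, had neighbours at 0 in all 4 libraries, Serpina3a and Serpina3c among them. The alpha-1-antitrypsin genes Serpina1a to Serpina1f, abundant in liver, were also at 0, and so were Alb, Ttr, Fga, Fgb and Fgg of a 10-gene liver list. In the chromosome 13 cluster Serpinb1a, Serpinb6b, Serpinb9 and Serpinb6a had 4652 to 23025 counts in total, while the 11 others had at most 5. These genes are expanded in the mouse, and reads from stretches shared by paralogues may have been dropped or split in the counting. Of the 50-base windows in the transcripts of Serpina3g, 15.5% also occurred in another gene, as did 10.6% for Serpina3f, 2.92% for Serpina3b, 21.9% for Serpina3h and 15.9% for Serpina3i, against 0.378% for Serpinb9 and 0 for Serpinh1. Of 100-base windows, 3.49% for Serpina3g, 3.40% for Serpina3f and 0 for Serpina3b, Serpinb1a, Serpinb6a, Serpinb6b and Serpinb9 did so.

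**Figure D2:**
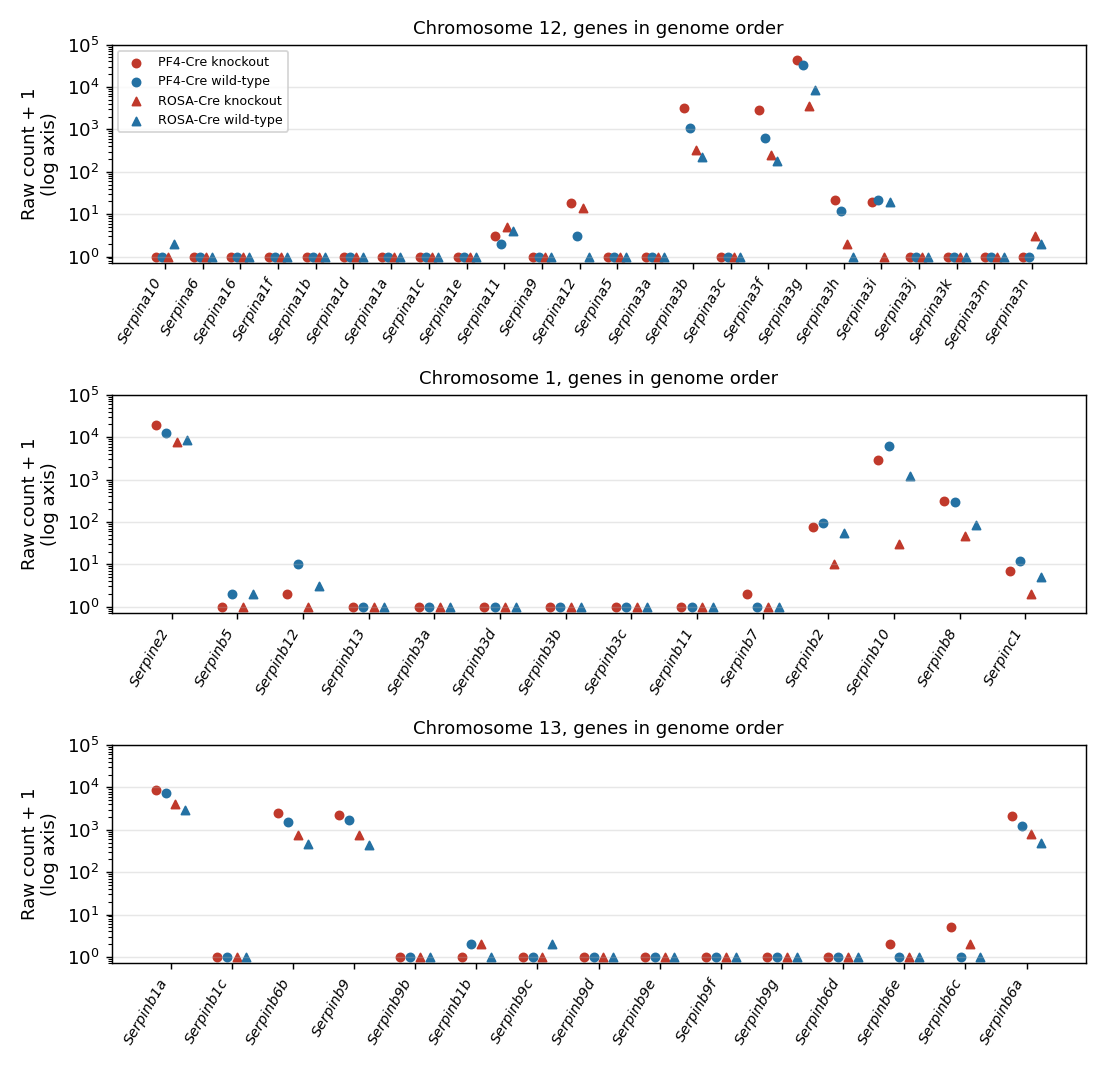
Raw count plus 1 (log axis) in each library for every serpin gene on chromosomes 12, 1 and 13, in genome order and not to scale. A few well-counted genes stand among neighbours at or near 0, such as Serpina3g with 43940 counts in the PF4-Cre knockout.

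The sequences before the starts of Serpinh1, Serpinb10 and the Serpina3 paralogues named here are shown. They were not picked by size of change alone. Serpina12, with the largest fitted log2 fold change (3.80), is not printed, and its window held no match to any sequence searched for. RefSeq's promoter table (GRCm38.p6) held 16 of the 19 measured members, and the 250 bases before the start are printed 5' to 3' on the gene's strand, for Serpina3f at the first of its starts. Capitals mark matches on either strand to AAATCA, a short form of the recognition sequence of the GFI1 family, or to AGATAA, that of GATA factors. Serpinb6a and Serpinb6b, called higher in the knockouts, are not printed either, and none of their windows held AAATCA or AGATAA. The windows are chr12:104127746-104127995 (plus strand) for Serpina3b, chr12:104214294-104214543 (plus) for Serpina3f, chr12:104235897-104236146 (plus) for Serpina3g, chr12:104262872-104263121 (plus) for Serpina3i, chr7:99353240-99353489 (minus) for Serpinh1 and chr1:107528753-107529002 (plus) for Serpinb10.
Serpina3b: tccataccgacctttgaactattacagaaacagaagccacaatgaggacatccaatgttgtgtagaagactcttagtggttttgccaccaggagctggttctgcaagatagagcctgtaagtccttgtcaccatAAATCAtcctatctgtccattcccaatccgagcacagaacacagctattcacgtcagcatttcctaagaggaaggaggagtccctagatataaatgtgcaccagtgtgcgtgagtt
Serpina3f: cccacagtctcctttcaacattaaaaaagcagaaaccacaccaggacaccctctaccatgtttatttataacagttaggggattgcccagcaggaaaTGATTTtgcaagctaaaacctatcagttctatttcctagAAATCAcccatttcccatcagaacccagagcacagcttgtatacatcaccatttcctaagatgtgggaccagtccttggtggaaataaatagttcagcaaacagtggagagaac
Serpina3g: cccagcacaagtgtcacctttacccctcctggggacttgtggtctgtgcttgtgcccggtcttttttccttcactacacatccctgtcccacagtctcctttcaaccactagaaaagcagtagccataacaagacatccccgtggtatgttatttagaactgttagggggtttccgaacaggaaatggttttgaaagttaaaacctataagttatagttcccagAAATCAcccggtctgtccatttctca
Serpina3i: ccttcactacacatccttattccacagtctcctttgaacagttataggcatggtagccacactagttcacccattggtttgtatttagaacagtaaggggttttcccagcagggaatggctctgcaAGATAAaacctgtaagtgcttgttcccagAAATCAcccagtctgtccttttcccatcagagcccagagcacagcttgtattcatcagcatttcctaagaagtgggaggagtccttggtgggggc
Serpinh1: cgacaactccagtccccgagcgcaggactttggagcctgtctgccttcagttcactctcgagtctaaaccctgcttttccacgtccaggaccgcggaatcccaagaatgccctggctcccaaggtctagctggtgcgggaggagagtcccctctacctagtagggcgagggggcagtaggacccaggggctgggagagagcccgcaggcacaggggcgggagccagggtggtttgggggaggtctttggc
Serpinb10: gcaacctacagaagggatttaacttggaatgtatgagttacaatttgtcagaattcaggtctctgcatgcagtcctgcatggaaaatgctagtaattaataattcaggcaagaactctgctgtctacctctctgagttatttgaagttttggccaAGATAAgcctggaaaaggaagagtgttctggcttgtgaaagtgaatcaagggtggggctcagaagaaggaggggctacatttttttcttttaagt

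All 4 Serpina3 windows held AAATCA, once in Serpina3b (bases 116 to 111 before the start), Serpina3g (26 to 21) and Serpina3i (95 to 90) and once on each strand in Serpina3f (153 to 148 and 114 to 109). The windows of Serpina3b, Serpina3f and Serpina3i resemble each other. The Serpina3f window was 63.3% identical to that of Serpina3b and 64.1% to that of Serpina3i. The Serpina3g window was less alike, 34.7% identical to that of Serpina3b, 39.2% to that of Serpina3f and 44.9% to that of Serpina3i. The identity of unrelated windows was not computed. As paralogues, the 4 genes are not independent cases. RefSeq's start for Serpina3g lies upstream of the GENCODE gene, and the bases after it were not found in the GENCODE transcripts. Over all 32817 promoter windows of that length, 12.4% held AAATCA and 9.99% AGATAA, against 5 and 4 of the 19 windows of measured serpins. The 5 windows belong to 4 genes, since Serpina3f has 2 overlapping windows that hold the same sites. The longer GFI1 consensus AATCACNGC was in 0.777% of all windows and in 0 of the serpin windows, and the heat shock element GAANNTTC in 6.69% and 0. The interferon-stimulated element, searched as GAAA followed after a gap of 2 bases by another GAAA, was in 2.97% of all windows and, among serpins, in those of Serpinb6a and Serpinb9. These are matches of letters, not shown to be bound.

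The main comparison asked which serpins differed between libraries labelled knockout and wild-type across both Cre models. Of 16 serpins with enough counts for the test, 6 were higher in the knockouts (Serpinh1, Serpina3f, Serpina3b, Serpinb6b, Serpinb6a and Serpina12) and 1 was lower (Serpinb10) at an adjusted p under 0.05 (quasi-likelihood test of edgeR, adjusted for Cre model, Benjamini-Hochberg over all genes). Over all 15063 genes tested, 22.2% were called, 12.6% higher and 9.58% lower. Serpina12 passed the filter on low counts only through the knockouts; without it, 5 of 15 were higher. The serpins' median log2 fold change was 0.50 and that of all genes -0.02; with Serpina12 and Serpina3i, each at 0 in 1 library, set to their bounds, the serpin median was again 0.50. Both knockouts stood above both wild-types in 7 of the 16 and below them in 2, against 23.4% and 23.7% of all genes. Within PF4-Cre 4 of the 16 were at least 2-fold higher and 2 at least 2-fold lower in the knockout, where 9.8% and 2.78% of all genes were; within ROSA-Cre 2 were higher and 4 lower, where 13.8% and 7.86% of all genes were. Without Serpina12, the knockouts stood above both wild-types in 6 of 15, and 3 and 1 were at least 2-fold higher in PF4-Cre and ROSA-Cre. The test rests on n = 2 libraries per genotype, 1 from each Cre model, and nothing in the labels separates a model from a batch. Without the PF4-Cre knockout, the PF4-Cre wild-type, the ROSA-Cre knockout or the ROSA-Cre wild-type library, in fits that had to drop the Cre model term, 1, 3, 3 and 1 serpins were higher and 2, 0, 0 and 1 lower. Serpinh1 was called in all 4 of these fits; with all libraries and no Cre model term, 0 serpins were called, 5 having an unadjusted p under 0.05 upward and 0 downward.

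**Figure D3:**
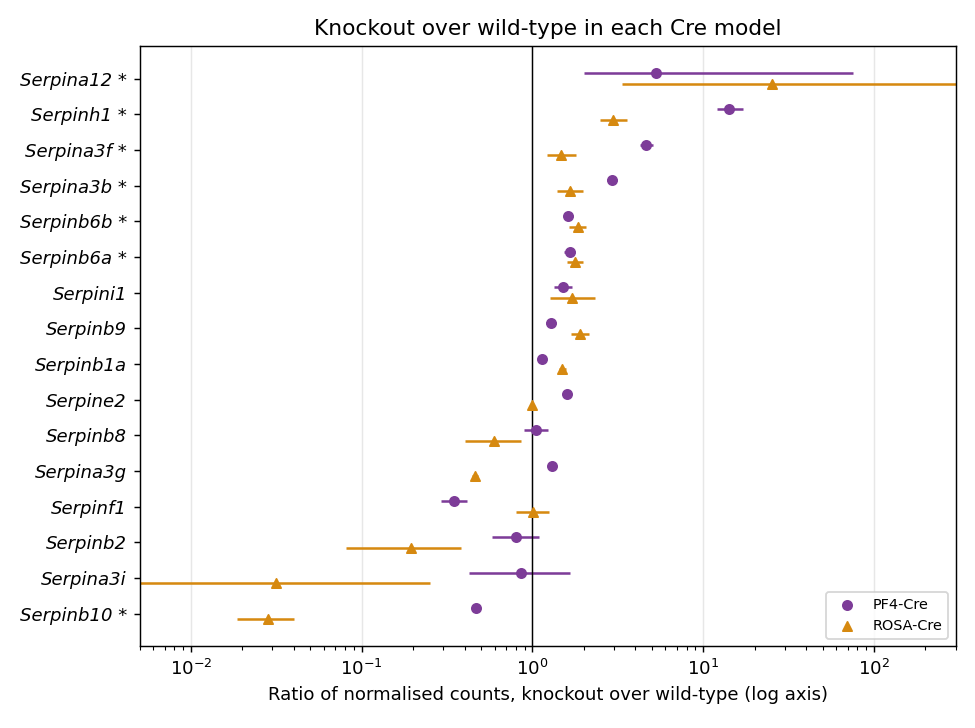
Ratio of normalised counts, knockout over wild-type (log axis, pseudocount 1), in PF4-Cre (purple circles) and ROSA-Cre (orange triangles) for the 16 tested serpins, ordered by fold change, with 95% Clopper-Pearson counting intervals as lines (cut at the frame where they run past it) and an asterisk for adjusted p under 0.05. Serpinh1 reached 14.2 in PF4-Cre and 2.96 in ROSA-Cre, while Serpina3g lay on opposite sides of 1; the ROSA-Cre points of Serpina12 and Serpina3i stand against a library at 0, so their place depends on the pseudocount.

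Serpinh1, the collagen chaperone, rose most among well-counted serpins. The gene (ENSMUSG00000070436, chromosome 7 from 99345376 to 99353239, minus strand of GRCm38) reached 33.5 CPM (2029 counts) in the PF4-Cre knockout and 2.34 CPM (140 counts) in its wild-type. ROSA-Cre held 464 counts (20.7 CPM) in the knockout and 172 (6.99 CPM) in the wild-type. Both knockouts were above both wild-types, and the rise was larger in PF4-Cre. PF4-Cre gave a ratio of 14.2, with a 95% Clopper-Pearson interval for counting error of 12.1 to 17.1, and ROSA-Cre one of 2.96 (2.48 to 3.55). Across the models this was a log2 fold change of 2.73 (SE 0.49), with an adjusted p of 0.0111 in edgeR's test. Stromal and osteoblast markers, of which Bglap was at 0, summed to 26.5 and 36.7 CPM in the knockouts and 47.5 and 47.4 CPM in the wild-types (PF4-Cre, then ROSA-Cre). Runx2 supplied 27.1 of the 36.7 CPM in the ROSA-Cre knockout, and single markers moved both ways. Runx2 and Pdgfrb had ratios of 1.23 and 1.88 in ROSA-Cre and Sp7 one of 1.93 in PF4-Cre, while 6 of the 11 markers above 0 were lower in both knockouts. The part of such cells in the Serpinh1 result was not tested.

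Genes for the work Serpinh1 is known for, the folding of collagen, moved both ways. Of 16 tested collagen chains and collagen-modifying enzymes 2 were higher and 4 lower in the knockouts, with a median log2 fold change of -0.15. Col6a1, 1 of the 4 lower, had 3 and 3 counts in the knockouts and 35 and 7 in the wild-types. It passed the filter on low counts only through the wild-types. P4ha1, a prolyl hydroxylase subunit, rose by 0.86 (SE 0.13, adjusted p = 0.00645, edgeR) and the lysyl hydroxylase Plod2 by 0.73 (SE 0.18). The prolyl hydroxylase partner P4hb, the most abundant of the list, fell by 0.77 on the log2 scale (SE 0.16), and the collagen chain Col1a2 fell by 1.63 (SE 0.33). Col1a2 had 665 and 79 counts in the PF4-Cre and ROSA-Cre knockouts and 1366 and 483 in the wild-types, and it is also among the stromal markers.

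Among the clade A serpins, Serpina3f and Serpina3b rose and Serpina3g did not pass the test. Serpina3f (ENSMUSG00000066363, chromosome 12 from 104214544 to 104221129, plus strand) had 48.6 CPM in the PF4-Cre knockout and 10.5 in its wild-type, and 10.9 CPM in the ROSA-Cre knockout and 7.35 in its wild-type. The ROSA-Cre knockout was only just above the PF4-Cre wild-type. PF4-Cre gave a ratio of 4.63 (counting interval 4.25 to 5.06) and ROSA-Cre one of 1.47 (1.21 to 1.80), for a fitted log2 difference of 1.51 (SE 0.37, adjusted p = 0.0288, edgeR). Serpina3b (ENSMUSG00000066364, chromosome 12 from 104127996 to 104139545, plus strand) had 51.7 CPM in the PF4-Cre knockout and 17.7 in its wild-type, and 14.7 CPM in the ROSA-Cre knockout and 8.90 in its wild-type. Here the knockouts and wild-types overlapped across models, though each knockout was above the wild-type of its own model. The Serpina3b ratios were 2.93 (2.73 to 3.14) and 1.65 (1.39 to 1.97), and its log2 fold change was 1.19 (SE 0.23, adjusted p = 0.0144). Without the PF4-Cre knockout library the fold changes were 0.28 for Serpina3f and 0.14 for Serpina3b and neither was called; without the ROSA-Cre wild-type they were 1.55 and 0.96 and not called. The Serpina3f call was also lost with no filter on low counts (adjusted p = 0.0649).

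Serpina3g was the most abundant serpin on average over the 4 libraries. In the ROSA-Cre knockout Serpine2 was above it in CPM (345 against 162) but below it per kilobase (41.7 against 76.9 CPM per kb). Serpina3g moved in opposite directions in the models. This gene (ENSMUSG00000041481, chromosome 12 from 104236245 to 104241939, plus strand) reached 726 CPM (43940 counts) in the PF4-Cre knockout and 561 CPM (33545 counts) in its wild-type. In ROSA-Cre it reached 162 CPM (3624 counts) in the knockout and 349.6 CPM (8603 counts) in the wild-type. PF4-Cre had a ratio of 1.29 (1.28 to 1.31), ROSA-Cre one of 0.463 (0.445 to 0.481), and the difference over both was not called (log2 -0.36, SE 0.31, adjusted p = 0.437, edgeR); it was called as lower without the PF4-Cre knockout library (-1.49). Markers of neutrophil precursors shared this pattern only in part. All 15 were lower in the ROSA-Cre knockout than in its wild-type, and 7 of them were higher in the PF4-Cre knockout than in its wild-type. Among these 7, S100a8 had a PF4-Cre ratio of 1.23 and a ROSA-Cre ratio of 0.347, and S100a9 had 1.22 and 0.287. The other 8 were lower in both knockouts, such as Mpo with ratios of 0.280 and 0.252. The part of these markers in the Serpina3g result was not tested. In all, 4 of 16 serpins had ratios on opposite sides of 1 in the models, beside 22.9% of all genes. Of these 4, only Serpina3g had both counting intervals away from 1. That share was not computed over all genes, and high counts narrow the intervals. In the clotting list 4 of 17 genes above 0 were likewise higher in the PF4-Cre knockout and lower in the ROSA-Cre one, F5 (ratios 1.61 and 0.600) among them. With 1 library per genotype and model, the difference between the models has no test.

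At the low end, Serpina12, which encodes vaspin, an adipokine that inhibits kallikrein 7, had 17 and 13 counts in the PF4-Cre and ROSA-Cre knockouts and 2 and 0 counts in the wild-types. It entered the test only through the knockouts. The PF4-Cre ratio was 5.31 (counting interval 1.99 to 74.9), and ROSA-Cre was at least 4.76-fold higher against a floor of 3 counts per library (adjusted p = 0.0222 over both, edgeR). In edgeR no call was made without a filter on low counts (adjusted p = 0.0559) or without the Cre model term (adjusted p = 0.146). Serpina12 was also not among the genes called by the DESeq2 Wald test. With any 1 of the 4 libraries left out, its log2 fold change was 3.45 to 6.79 and it was not called. Serpina3i, another chromosome 12 paralogue, had 18 and 0 counts in the PF4-Cre and ROSA-Cre knockouts and 21 and 18 in the wild-types and was not called (adjusted p = 0.18). Serpina3h, annotated as a transcribed pseudogene in GENCODE M21, had 20 and 1 counts in the knockouts and 11 and 0 in the wild-types, too few to test.

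Clade B, the intracellular serpins, held 2 higher and 1 lower among 7 tested, beside 12.6% and 9.58% of all genes, with a median log2 fold change of 0.38. Serpinb6a, the counterpart of human SERPINB6, an inhibitor of cathepsin G, had 34.7 and 35.7 CPM in the PF4-Cre and ROSA-Cre knockouts and 21.0 and 20.1 CPM in the wild-types. Its paralogue Serpinb6b had 41.6 and 33.6 CPM in the knockouts and 25.6 and 18.3 CPM in the wild-types. For both genes the knockouts lay above the wild-types in each model. Serpinb6a (ENSMUSG00000060147, chromosome 13 from 33917918 to 34002794, minus strand) had ratios of 1.65 (1.54 to 1.77) and 1.77 (1.58 to 1.99) in PF4-Cre and ROSA-Cre and differed by a log2 value of 0.77 (SE 0.16, adjusted p = 0.017, edgeR). Serpinb6b (ENSMUSG00000042842, chromosome 13 from 32965209 to 32979067, plus strand) had ratios of 1.62 (1.52 to 1.73) and 1.84 (1.63 to 2.07) and a log2 difference of 0.78 (SE 0.16, adjusted p = 0.0161). Although the fold changes stayed between 0.75 and 0.81 for Serpinb6a and between 0.58 and 1.05 for Serpinb6b when any 1 library was left out, neither was called in those fits. Exons of Serpinb6a overlap those of Nqo2 on the opposite strand over 762 bases, and the strand setting of the counting is not given in the sources used here.

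Serpinb9, the inhibitor that protects cells from granzyme B, and Serpinb1a, an inhibitor of neutrophil elastase and cathepsin G, were higher in both knockouts without passing the test. Serpinb9 had 36.5 and 33.3 CPM in the PF4-Cre and ROSA-Cre knockouts and 28.3 and 17.5 CPM in the wild-types (log2 fold change 0.63, SE 0.19, adjusted p = 0.0517, edgeR). It fell just short of the threshold, and 5 alternative settings called it, with adjusted p values between 0.0252 and 0.0499. Serpinb1a had 142 and 178 CPM in the knockouts and 125 and 119.5 CPM in the wild-types (0.38, SE 0.14, adjusted p = 0.0895). Serpinb8, whose human counterpart inhibits furin, had 5.27 and 2.01 CPM in the knockouts and 5.02 and 3.41 CPM in the wild-types (adjusted p = 0.677).

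Serpinb10, whose human counterpart bomapin is a nuclear serpin of bone marrow cells, was lower in both knockouts by very unequal amounts. GENCODE M21 lists the gene (ENSMUSG00000092572, chromosome 1 from 107529003 to 107549271, plus strand) as a polymorphic pseudogene. Its level was 48.3 CPM (2921 counts) in the PF4-Cre knockout and 103 CPM (6160 counts) in its wild-type, and 1.34 CPM (30 counts) in the ROSA-Cre knockout and 48.1 CPM (1184 counts) in its wild-type. The PF4-Cre knockout was level with the ROSA-Cre wild-type, and the ROSA-Cre knockout stood apart. It was 2.13-fold lower in PF4-Cre (2.04 to 2.23) and 35.3-fold lower in ROSA-Cre (25.0 to 53.5), and the fitted log2 difference was -2.48 (SE 0.73, adjusted p = 0.0489, edgeR). That call was lost with edgeR's older quasi-likelihood method (adjusted p = 0.0538) and with DESeq2 (0.139), and without the ROSA-Cre knockout or the PF4-Cre wild-type library (log2 -0.65 and -0.92, adjusted p = 0.66 and 0.50). Serpinb2, the plasminogen activator inhibitor of monocytes and macrophages, overlaps Serpinb10 on the same strand. The genes share 291 exonic bases, 12.4% of the exonic length of Serpinb2. The part of Serpinb10 reads in the Serpinb2 counts was not tested. Serpinb2 had 75 and 9 counts in the PF4-Cre and ROSA-Cre knockouts and 93 and 53 in the wild-types, and was not called (log2 fold change -0.90, SE 0.48, adjusted p = 0.221).

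Lists of markers for other cell types were read in the same libraries. Neutrophil precursor markers summed to 1117 and 512 CPM in the PF4-Cre and ROSA-Cre knockouts and 1786 and 1945 CPM in the wild-types, with 5 of 15 lower and 0 higher by the edgeR test, and none of them at 0. Monocyte and macrophage markers summed to 529.9 and 335 CPM in the knockouts and 569 and 581 CPM in the wild-types, with 4 of 10 lower and 0 higher. Like Serpinb10, both sums were lowest in the ROSA-Cre knockout; their part in the Serpinb10 result was not tested. Serpina3g was also lowest in the ROSA-Cre knockout, while Serpinb1a was highest there. Basophil and mast cell markers summed to 403 and 909 CPM in the knockouts and 249 and 318 CPM in the wild-types (2 of 8 tested higher, 1 lower). Gata2 alone supplied 303 and 789 CPM of the knockout sums and 153 and 213 CPM of the wild-type sums. Endothelial markers summed to 706 and 816 CPM in the knockouts and 545 and 638 CPM in the wild-types (3 of 9 higher, 0 lower). Tie1, the most abundant of them, had 186 and 255 CPM in the knockouts and 179 and 244 CPM in the wild-types. Cdh5, Sox17 and Sox18 of the same list had 5 counts or fewer in every library. Of 12 erythroid markers 5 were higher and 3 lower, and of 12 megakaryocyte markers 2 were higher and 3 lower. Of 6 stromal markers 0 were higher and 3 lower. Lepr, 1 of those 3, had 9 and 4 counts in the knockouts and 73 and 8 in the wild-types. It passed the filter on low counts only through the wild-types. Of 8 lymphoid markers and 1 liver marker 0 were called. Over all genes 12.6% were higher and 9.58% lower.

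Secreted serpins outside clade A gave no call between genotypes. Serpine2, protease nexin-1, which inhibits thrombin and plasminogen activators, had 327 CPM in the PF4-Cre knockout and 206 CPM in its wild-type, and 345 CPM in the ROSA-Cre knockout and 347 CPM in its wild-type. Only the PF4-Cre wild-type was low. PF4-Cre had a ratio of 1.58 (1.55 to 1.62), ROSA-Cre one of 0.995 (0.965 to 1.03), and the fitted log2 difference was 0.33 (SE 0.17, adjusted p = 0.213, edgeR). Serpinf1, the antiangiogenic factor PEDF, had 3.04 CPM in the PF4-Cre knockout and 8.77 CPM in its wild-type, and 7.01 CPM in the ROSA-Cre knockout and 6.99 CPM in its wild-type (-0.83, SE 0.38, adjusted p = 0.163). In PF4-Cre its level was 2.87-fold lower (counting interval 2.43 to 3.43) and in ROSA-Cre the ratio was 1.003 (0.803 to 1.25), with no test of the difference between the models. Serpini1, neuroserpin, an inhibitor of tissue plasminogen activator, had 10.7 and 5.23 CPM in the PF4-Cre and ROSA-Cre knockouts and 7.09 and 3.05 CPM in the wild-types (0.66, SE 0.25, adjusted p = 0.107). Antithrombin (Serpinc1) had 6 and 1 counts in the knockouts and 11 and 4 in the wild-types, and C1 inhibitor (Serping1) 1 and 1 counts in the knockouts and 15 and 4 in the wild-types, too few for the test.

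The proteases that serpins restrain were read from lists of partner genes, whose counts stand beside 12.6% of all genes higher and 9.58% lower. Of 8 tested serine proteases of blood cell granules 4 were lower and 1 higher in the knockouts, with a median log2 fold change of -1.11. Cathepsin G (Ctsg), neutrophil elastase (Elane), proteinase 3 (Prtn3) and Prss57 fell, by 1.98, 1.81, 1.76 and 1.77 on the log2 scale (SE 0.13, 0.13, 0.16 and 0.23, adjusted p = 0.000245, 0.000317, 0.000904 and 0.00337, edgeR); the first 3 also stand in the neutrophil list. Ctsg had 2868 and 1031 counts in the PF4-Cre and ROSA-Cre knockouts and 10443 and 4764 in the wild-types. The gene that rose was granzyme B (Gzmb), the target of Serpinb9, with 111 and 10 counts in the PF4-Cre and ROSA-Cre knockouts and 18 and 0 in the wild-types (adjusted p = 0.0129). Elastase and cathepsin G, known targets of Serpinb1a, were thus lower in the knockouts, while Serpinb1a itself was not called.

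Among 14 tested genes for lysosomal cathepsins and legumain, most of them cysteine proteases, 4 were higher and 1 lower, with a median of 0.17. Cathepsin F (Ctsf) rose by 2.003 on the log2 scale (SE 0.24), cathepsin O (Ctso) by 1.05 (SE 0.18), cathepsin W (Ctsw) by 1.76 (SE 0.34) and cathepsin L (Ctsl) by 0.74 (SE 0.19), and the aspartic protease cathepsin E (Ctse) fell by 1.05 (SE 0.28). The most abundant member, cathepsin D (Ctsd), also an aspartic protease, did not pass the test (0.06, SE 0.12). Of 9 caspases 5 were higher and 0 lower (median 0.84), with Casp12 up by 2.41 (SE 0.14, adjusted p = 0.000189, edgeR), Casp1 by 1.53 (SE 0.15), Casp4 by 1.23 (SE 0.17), Casp6 by 1.31 (SE 0.23) and Casp9 by 0.84 (SE 0.17).

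In clotting and fibrinolysis 4 of 12 tested genes were higher and 1 lower (median 0.13), again beside 12.6% and 9.58% of all genes. Prothrombin (F2), the precursor of the protease that Serpine2 and antithrombin inhibit, had 403 and 94 counts in the PF4-Cre and ROSA-Cre knockouts and 46 and 17 in the wild-types (log2 fold change 2.95, SE 0.36, adjusted p = 0.00272, edgeR). The protein C receptor Procr rose by 6.15 (SE 0.37), thrombomodulin (Thbd) by 0.78 (SE 0.18) and F8 by 1.21 (SE 0.31), and the fibrin-crosslinking F13a1 fell by 0.88 (SE 0.17). Vwf, the most abundant of the list, did not pass (-0.36, SE 0.23). In the complement list, where C1 inhibitor acts, C1ra had 670 and 381 counts in the knockouts and 102 and 21 in the wild-types (3.26, SE 0.38) and C1qc was lower (-1.14, SE 0.31) among 6 tested. Among 7 tested clearance receptors, a list of receptors for serpin-protease complexes and their relatives, Lrp8 was lower (-1.90, SE 0.35) and the most abundant, Sort1, did not pass (-0.11, SE 0.12). Protease inhibitors outside the serpin family had 1 of 14 higher and 4 lower (median -0.33). Timp3, an inhibitor of metalloproteases, rose by 1.62 (SE 0.16), and Timp2 (-1.33, SE 0.27), the leukocyte cystatin Cst7 (-0.87, SE 0.17), Pebp1 (-0.57, SE 0.13) and Slpi (-1.14, SE 0.33) fell.

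**Figure D4:**
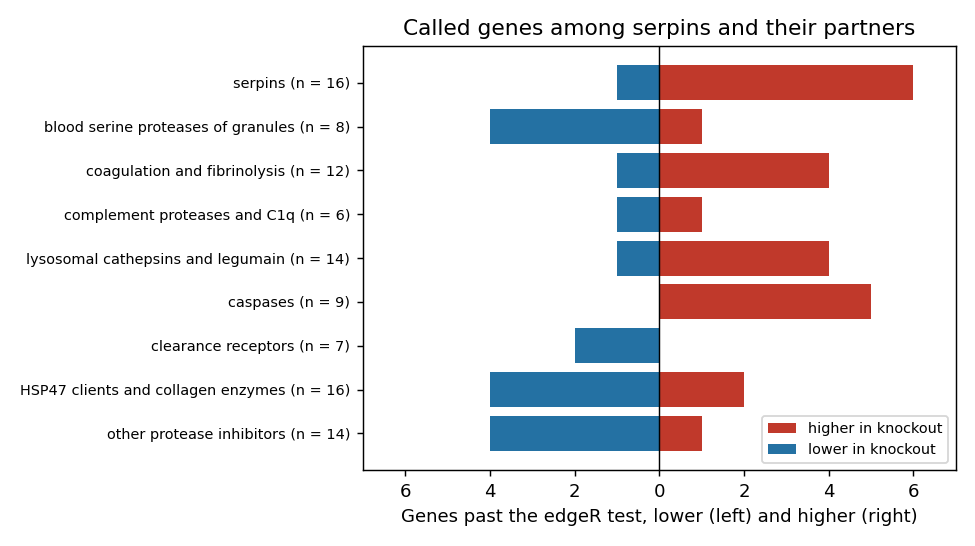
Number of genes past the edgeR test among 16 tested serpins and in 8 partner lists, lower in knockout to the left in blue and higher to the right in red, with the number tested in brackets. The serpins had 6 higher and 1 lower, the granule serine proteases 1 higher and 4 lower, and the caspases 5 higher and 0 lower.

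A second comparison asked which serpins differed between ROSA-Cre and PF4-Cre over both genotypes. Lower in ROSA-Cre were 4 of 16, Serpina3b, Serpina3f, Serpina3g and Serpini1, and 0 were higher, where 1 had an unadjusted p under 0.05 in that direction (edgeR; by DESeq2 0 were higher and 3 lower). Of all genes 18.7% were called, 8.31% higher and 10.4% lower. Serpina3b had 14.7 and 8.90 CPM in the ROSA-Cre knockout and wild-type and 51.7 and 17.7 CPM in the PF4-Cre knockout and wild-type (log2 fold change -1.42, SE 0.23, adjusted p = 0.0102), which does not overlap. Serpina3g (-1.42, SE 0.32, adjusted p = 0.0243) and Serpini1 (-1.12, SE 0.26, adjusted p = 0.0285) did not overlap between models either, while Serpina3f (-1.38, SE 0.37, adjusted p = 0.0408) did. Serpinb10 fell short (-2.52, SE 0.73, adjusted p = 0.0526). Model cannot be told apart from depth or preparation here. Leaving out any 1 library, with the genotype term dropped, ended all 4 calls, and so did dropping that term with all libraries kept.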

How the data were processed

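Megakaryocyte RNA of 4 mouse groups, 1 library each, was used, grouped by title. The library kit was TruSeq Stranded mRNA, per the labels' protocols. Builds mm10 and GRCm38, the aligner TopHat2 2.0.10 and the tools HTSeq, SAMtools and DESeq are listed, with no order, per the submitters' processing notes. The authors deposited raw read counts per Ensembl gene; no annotation release, strand setting or pooling is given in the sources used here. HTSeq's 5 category lines stayed out: reads with no gene made up 32.1% to 36.2% of uniquely aligned reads, ambiguous ones 0.448% to 0.532%. Symbols were found for 40254 identifiers; coordinates and exon lengths are from GENCODE M21 (GRCm38).

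Members and lists (8 partner, 9 marker lists) were chosen with earlier results of these data known. Members were named with full values if called in either comparison or among the 10 most abundant per length, other measured members more briefly. List genes were named if among the 4 smallest p of those called or the most abundant. Gzmb, F5, F8, Ctse, Casp9, Slpi, S100a8, S100a9, Runx2, Pdgfrb, Sp7, Col6a1, Cdh5, Sox17 and Sox18 were named after their values were seen. Some genes are not reported here by name. edgeR 4.0.16 in R 4.3.3 was fitted to all genes: TMM, filterByExpr by genotype (minimum count 10), a design of genotype plus Cre model, F-tests by quasi-likelihood (legacy off), Benjamini-Hochberg at 0.05, 15063 genes, 1 residual and 6.25 prior degrees of freedom. Dividing a log2 fold change by the square root of its F gave the SE. P-values measure the spread between these libraries. Within a model, ratios of normalised counts carry a pseudocount of 1 and 95% Clopper-Pearson intervals on the counts; intervals and the floor of 3 counts cover counting error only. Alternatives were DESeq2 1.42.0 and its size factors, other filters, no second term, each library left out, a fit without neutrophil, erythroid and mitochondrial genes and, added after seeing the data, edgeR's older method.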

Additional observations from a re-analysis of the deposited data

Results flagged for a closer look

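Serpina3g was picked out because its counts moved in opposite directions in the 2 Cre models, with both counting intervals away from 1. How many of all genes meet that rule was not counted, and high counts narrow the intervals. The Serpina3g ratio of knockout over wild-type was 1.29 in PF4-Cre and 0.463 in ROSA-Cre. Of 15 neutrophil precursor markers, 7 moved the same way, such as S100a8 with a PF4-Cre ratio of 1.23 and a ROSA-Cre ratio of 0.347. The other 8 were lower in both knockouts, such as Mpo with ratios of 0.280 and 0.252. The part of these markers in the result was not tested. The difference between the models was not tested, since each genotype has 1 library per model.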

How the results depend on the processing

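The number of serpins higher in the knockouts was 6 in the report and stayed between 4 and 7 with DESeq2 size factors, the DESeq2 Wald test, no low-count filter, a mean of at least 5 CPM, edgeR's older method and the fit without neutrophil, erythroid and mitochondrial genes; it was 0 without the Cre model term, and 1 to 3 with 1 library left out. The 1 lower serpin became 0 with the DESeq2 Wald test (1 with an unadjusted p under 0.05), with no low-count filter (2), with the older method (1) and without the Cre model term (0), and 0 to 2 with 1 library left out. The 4 lower in ROSA-Cre became 2 with no low-count filter, 0 without the genotype term and 0 with any 1 library left out. The cause was not tested beyond the fewer libraries and lost term of those fits. The labels carry no replicate numbers; the Cre model term pairs the knockout and wild-type of each model, and the fits without it are those given above. Fold changes that turned sign did so only with 1 library left out: -0.042 to 0.73 for Serpine2, -1.08 to 0.31 for Serpinb8 (0.16 without the PF4-Cre wild-type) and -1.49 to 0.67 for Serpina3g (0.35 without the PF4-Cre wild-type), none of them called in the report. Over all alternatives, 154 fold changes kept direction and side of the threshold, 53 lost their call, 8 gained one and 5 turned sign. No within-model ratio turned sign where its interval excluded 1; scaling to library totals moved 5 of them beyond their intervals. Totals of at least 10 or 50 counts left the number of measured serpins within 1.5 times 19. Depth limits the 5 serpins under 1 CPM, where 0 to 21 counts per library were seen.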
